A study of Mus musculus with 8 samples.

Results

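Collagens are extracellular proteins built from 3 chains wound into a triple helix, and the genes that encode the chains make up the family described here. It was taken by name: every gene of the array's probe annotation whose symbol has the form Col, a type number, a and a chain number. That gave 42 genes of the 19505 with a symbol, each read by 1 probe set, and all 42 matched the RefSeq gene of the same symbol by Entrez identifier. Hippocampi came from 8 animals whose genotype is labelled B6.Cg-Tg(APPswe)E1-2Dbo/J. These mice carry a transgene of amyloid precursor protein with the Swedish mutation, were aged 18 to 20 months and were killed after the Morris water maze, a test of spatial memory. The labels give impaired memory for 4 animals and intact memory for the other 4. All 8 carried the transgene, and no mouse without it was analysed here. Each mouse gave 1 array. The labels do not state the sex of the mice or the maze score that separated the groups.

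In the brain most collagen is made by fibroblasts of the meninges and around vessels and by the endothelial and mural cells that lay down the vascular basement membrane, the sheet of matrix that underlies the endothelium. Neurons and glia make a smaller set of chains, several of them anchored in the cell membrane. Fibrillar chains form rope-like fibrils, type IV chains form the network of basement membranes, type VI chains form beaded filaments, and fibril-associated chains decorate fibrils made by others. A few chains have been tied to amyloid: the shed part of collagen XXV occurs in amyloid plaques, the C-terminal fragment of collagen XVIII collects near them, and collagen VI has been reported to protect cultured neurons.

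No collagen gene passed the test of a difference between mice with impaired and intact memory after adjustment over all genes. Of the 42 genes, 24 had a higher and 18 a lower mean in impaired mice. That is 57.1% higher, against 49.6% of all genes. The median log2 difference, impaired minus intact, was 0.039 for the collagens and -0.0013 for all 19505 genes. The differences ran from -0.40 for Col6a6 to 0.31 for Col5a1. All 42 genes had 95% intervals that lay within a doubling either way (log2 differences between -1 and 1), and 33 had intervals within -0.5 and 0.5. These intervals bound the measured differences. For 21 of the genes, whose signal was no higher than a background level given below, the difference in RNA may be larger.

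The test was limma on the log2 values of 4 against 4 arrays, two-sided, with p-values adjusted by Benjamini-Hochberg over all 19505 genes. It called 0 collagens at an adjusted p under 0.05, where 0% of all genes were called, and the lowest adjusted p of a collagen was 0.963. At an unadjusted p under 0.05 there were 3 collagens, or 7.14%, against 4.94% of all genes (963). Of these 1, Col5a1, was higher in impaired mice, where 2.74% of all genes were, and 2, Col6a6 and Col15a1, were lower, where 2.19% of all genes were. The groups did not overlap for 1 collagen, Col28a1, which was higher in impaired mice. Over all genes they did not overlap for 2.76%, with 1.47% higher and 1.29% lower. These shares put the family near the background of the array. The count of 3 depended on single mice: leaving out impaired mouse 3 gave 0. It was 1 when impaired mouse 4 (Col5a1), intact mouse 1 (Col6a6) or intact mouse 4 (Col23a1) was left out, and 2 or 3 when any other mouse was.

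**Figure D1:**
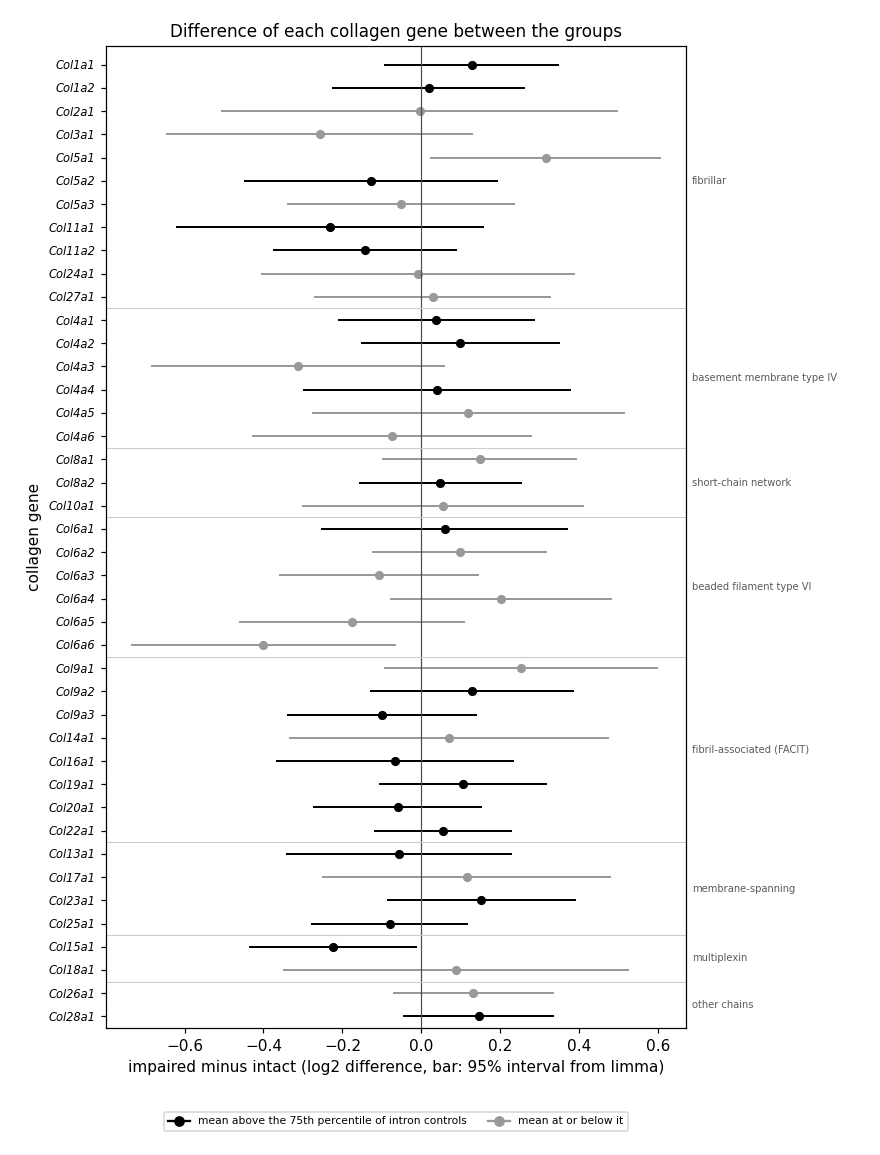
Log2 difference of each of the 42 collagen genes, impaired minus intact memory, with 95% intervals from limma over 4 arrays per group. Black marks genes whose mean lies above the 75th percentile of the intron controls and grey marks the others. Only Col5a1, Col6a6 and Col15a1 have intervals that leave out 0, and none passes the adjustment.

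Levels are log2 values from RMA, the robust multi-array average, and they are not compared between genes, since each probe set binds with its own strength. A level can be set against 5222 probe sets for introns that serve as negative controls on this array. Of the 42 collagens, 21 had a mean above the 75th percentile of the introns (6.30), or 50%, against 61.5% of all genes. Above their 95th percentile (7.92) lay 34.5% of all genes and 6 of the 42 collagens: Col8a2, Col9a3, Col16a1, Col22a1, Col25a1 and Col28a1. The other 21 genes lay at or below the 75th percentile, so that for these a difference in RNA may have been missed or understated. Of the 42, 10 also fell in the dimmest 25% of all genes. They were Col3a1, Col4a3, Col4a5, Col5a1, Col6a4, Col6a6, Col10a1, Col14a1, Col17a1 and Col24a1, and include Col5a1 and Col6a6 of the genes named above.

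**Figure D2:**
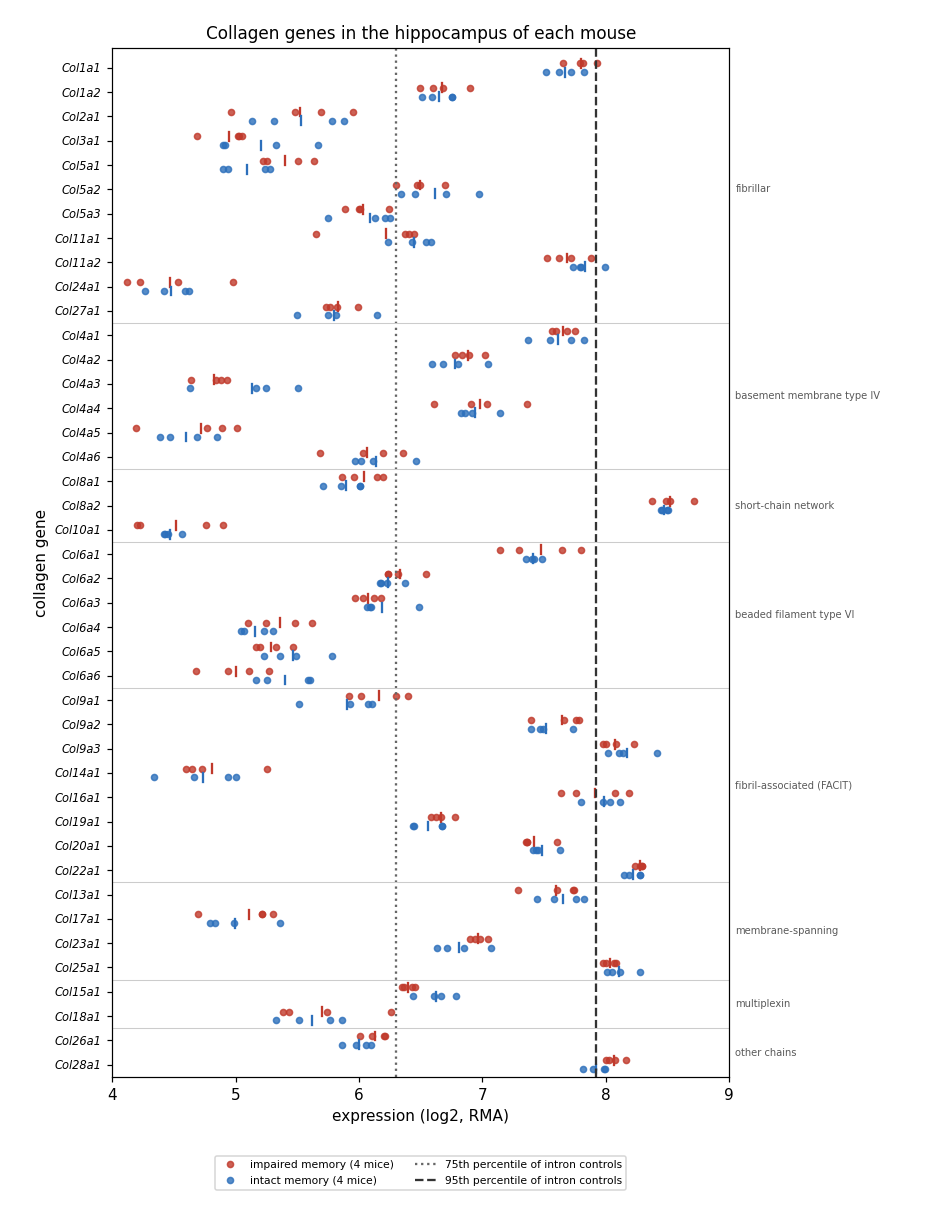
Expression (log2, RMA) of the 42 collagen genes in each of the 8 mice, by class of collagen, with impaired mice in red above intact mice in blue, short bars for the group means and vertical lines at the 75th and 95th percentiles of the intron controls (6.30 and 7.92). The groups lie on each other for most genes, and Col28a1 is the 1 gene whose groups do not overlap.

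The tissue and the arrays were checked first. Of 12 listed markers of hippocampal neurons 10 were measured, and 8 of these lay above the 75th percentile of the introns, with Spink8 and Iyd below it. The median over genes was 7.02 to 7.05 on the 8 arrays, and any pair of them had a correlation between 0.987 and 0.992 across genes. Markers of choroid plexus epithelium and of thalamus, which border the hippocampus, differed widely between mice. The mean deviation of 12 plexus markers from their means over all mice reached -1.01 in impaired mouse 3 and -0.95 in intact mouse 3, with the other mice between -0.39 and 0.92. That of 12 thalamus markers was -1.40 in intact mouse 3 and between -0.26 and 0.48 in the others. In bulk tissue, fewer cells of a type and less RNA per cell cannot be told apart. The labels do not say whether hippocampi of both sides were pooled, and the p-values measure the spread between single mice.

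Among the fibrillar collagens, 11 genes were measured, of which 4 had a higher and 7 a lower mean in impaired mice, with a median difference of -0.0087. Col1a1 and Col1a2 encode the chains of type I collagen, the main fibril of connective tissue and of meningeal fibroblasts. Col1a1 stood at 7.93, 7.65, 7.79 and 7.82 in impaired mice 1 to 4, against 7.62, 7.82, 7.52 and 7.72 in intact mice 1 to 4. The highest value was that of impaired mouse 1 and the lowest that of intact mouse 3, and the groups overlapped. The groups differed by 0.13 (standard error 0.098, adjusted p = 0.964 in limma), and the 95% interval ran from -0.092 to 0.35. Col1a2 had values of 6.49, 6.68, 6.90 and 6.6 in impaired mice and 6.51, 6.75, 6.59 and 6.75 in intact mice. Its difference was 0.018, with an interval from -0.22 to 0.26, and impaired mice held both its lowest and its highest value.

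Col3a1 encodes type III collagen, which forms fibrils with type I and is a ligand of the receptor Adgrg1 in the developing cortex. It was dim, at 5.05, 4.69, 5.03 and 5.02 in impaired mice, against 4.90, 5.67, 4.92 and 5.33 in intact mice. Intact mouse 2 stood highest and intact mouse 4 next, both above all impaired mice, while intact mice 1 and 3 lay among the impaired ones. The difference was -0.26 (standard error 0.17, interval -0.64 to 0.13). It was -0.10 without intact mouse 2, and -0.46 with the meningeal fibroblast score as a covariate (unadjusted p = 0.0369, adjusted p = 0.903 in limma). Type V collagen sits inside type I fibrils and limits their width. Its gene Col5a1 had values of 5.50, 5.22, 5.63 and 5.25 in impaired mice and 4.90, 5.24, 5.28 and 4.94 in intact mice. Intact mice 1 and 4 were low and impaired mice 1 and 3 high, while the other 4 mice lay between them. The difference was 0.31 (standard error 0.13), with an unadjusted p of 0.0363 and an adjusted p of 0.963 in limma, and an exact permutation p of 0.143. Its mean lay below the intron level.

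Col5a2, the partner chain of Col5a1, did not share that pattern. It stood at 6.49, 6.30, 6.47 and 6.69 in impaired mice and at 6.34, 6.71, 6.97 and 6.46 in intact mice, with a difference of -0.13 (standard error 0.14), which was -0.011 without intact mouse 3. Type XI collagen starts fibrils in cartilage, and the gene of one of its chains, Col11a1, had values of 5.65, 6.37, 6.40 and 6.44 in impaired mice, against 6.59, 6.54, 6.23 and 6.43 in intact mice. Impaired mouse 1 stood well below the other 7 mice, in which the groups overlapped. The difference was -0.23 (standard error 0.17), and it was -0.042 without impaired mouse 1. The remaining fibrillar genes were Col11a2, the type V chain Col5a3, Col2a1 of cartilage, and Col24a1 and Col27a1, minor fibrillar collagens. They differed by -0.14, -0.051, -0.0048, -0.0087 and 0.029, with intervals that all included 0.

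Type IV collagen is the scaffold of basement membranes, and its chains Col4a1 and Col4a2, which assemble together, are those of the brain's vessels. Variants in both genes cause cerebral small vessel disease in humans and mice. The 2 genes lie head to head on chromosome 8. Their starts in RefSeq (GRCm38.p6) were 21 bases apart on opposite strands, and the windows of 250 bases before to 50 after each start shared 78 bases. Each start lay within the 50 bases of the other gene, so that the 2 genes overlapped at their starts. The windows are shown because this is the only pair whose windows overlapped among the collagens with a RefSeq window. Of the type IV genes Col4a3 had no window, so that an overlap with Col4a4 could not be looked for. Capitals mark matches, on either strand, to the CCAAT box (CCAAT), the GC box (GGGCGG) and the TATA box (TATAAA). The Col4a1 window is chr8:11312777-11313076 on the minus strand and the Col4a2 window is chr8:11312555-11312854 on the plus strand.
Col4a1: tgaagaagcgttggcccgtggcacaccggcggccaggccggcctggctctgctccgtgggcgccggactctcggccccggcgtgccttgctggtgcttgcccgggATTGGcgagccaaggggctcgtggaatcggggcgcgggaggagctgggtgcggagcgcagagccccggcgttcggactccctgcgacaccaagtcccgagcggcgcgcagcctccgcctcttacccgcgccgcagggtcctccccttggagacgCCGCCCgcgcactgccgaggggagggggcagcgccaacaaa
Col4a2: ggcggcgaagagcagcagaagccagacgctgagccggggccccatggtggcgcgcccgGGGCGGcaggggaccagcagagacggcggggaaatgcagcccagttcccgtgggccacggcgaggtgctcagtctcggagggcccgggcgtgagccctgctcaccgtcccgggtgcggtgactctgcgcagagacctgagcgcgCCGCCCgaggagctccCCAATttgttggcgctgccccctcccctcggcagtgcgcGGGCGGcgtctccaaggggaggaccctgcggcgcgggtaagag

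The Col4a1 window held 1 CCAAT box and 1 GC box, and the Col4a2 window 1 CCAAT box and 3 GC boxes. The GC box of the Col4a1 window and the last one of the Col4a2 window are the same site, within the 78 shared bases. Neither window held a TATA box by these letters. RefSeq windows were at hand for 34 of the 42 collagen genes, 37 windows in all. A GC box was found in 59.5% of these and in 35.7% of all 32851 windows, a CCAAT box in 32.4% and 37.4%, and a TATA box in 13.5% and 13.6%. These are matches of letters and not shown to be sites.

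Col4a1 had values of 7.69, 7.57, 7.75 and 7.6 in impaired mice and 7.55, 7.37, 7.82 and 7.72 in intact mice. Intact mice held both the lowest and the highest value. The difference was 0.038, with a standard error of 0.11 and an interval from -0.21 to 0.28. Col4a2 stood at 7.02, 6.89, 6.83 and 6.77 in impaired mice and at 6.80, 6.68, 7.04 and 6.59 in intact mice. It too had its lowest and highest value in intact mice, in mouse 4 and mouse 3, and differed by 0.099 (standard error 0.11, interval -0.15 to 0.35), or by 0.036 without intact mouse 4. Over the 8 mice Col4a1 and Col4a2 correlated with a Pearson r of 0.45 (exact permutation p = 0.268) and a Spearman rho of 0.43 (exact p = 0.299). Intact mouse 4 was above the mean for Col4a1 and lowest for Col4a2. Leaving out 1 mouse at a time gave r between 0.22 and 0.79.

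The other type IV chains, Col4a3 to Col4a6, are those of the kidney's basement membranes and of smooth muscle, and the first 3 of them are mutated in human Alport syndrome. Col4a4 was the only one above the intron level, at 6.91, 6.61, 7.04 and 7.36 in impaired mice and 6.83, 7.15, 6.91 and 6.86 in intact mice. Impaired mice 2 and 4 enclosed all other values, and the difference was 0.041 (standard error 0.15). Col4a3 differed by -0.31 (interval -0.68 to 0.058), Col4a5 by 0.12 and Col4a6 by -0.074. Of the 6 type IV genes, 4 had a higher and 2 a lower mean in impaired mice, and 0 had an unadjusted p under 0.05. Col4a3 and Col4a4 gave r = -0.36 over the 8 mice (exact p = 0.381), and Col4a5 and Col4a6, neighbours on the X chromosome, gave 0.12 (exact p = 0.785). The short-chain collagens, which form the lattice under the corneal endothelium (Col8a1, Col8a2) and mark hypertrophic cartilage (Col10a1), differed by 0.15, 0.047 and 0.054.

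Type VI collagen forms beaded filaments between basement membranes and fibrils. The chains of Col6a1 and Col6a2 assemble with that of Col6a3 or of the related Col6a4, Col6a5 or Col6a6. Col6a1 and Col6a2 both lie on the minus strand of chromosome 10, and their RefSeq windows (GRCm38.p6) do not overlap. They are shown because this pair had the highest Pearson correlation among the fixed pairs, with capitals for the same 3 motifs. The Col6a1 window is chr10:76725995-76726294 and the Col6a2 window chr10:76623355-76623654. Col6a2 has 2 windows in RefSeq, and the more downstream one is printed.
Col6a1: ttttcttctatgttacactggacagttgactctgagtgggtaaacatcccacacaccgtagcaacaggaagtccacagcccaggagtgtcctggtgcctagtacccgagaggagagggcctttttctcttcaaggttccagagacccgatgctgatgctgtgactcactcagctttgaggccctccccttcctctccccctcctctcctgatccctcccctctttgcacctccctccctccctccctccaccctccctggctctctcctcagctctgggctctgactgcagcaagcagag
Col6a2: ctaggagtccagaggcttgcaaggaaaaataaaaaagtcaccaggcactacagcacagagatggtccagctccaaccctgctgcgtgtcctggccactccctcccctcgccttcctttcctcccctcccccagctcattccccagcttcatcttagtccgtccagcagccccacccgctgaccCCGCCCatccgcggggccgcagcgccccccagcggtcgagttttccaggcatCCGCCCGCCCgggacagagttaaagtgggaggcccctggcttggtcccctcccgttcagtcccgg

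The Col6a1 window held none of the 3 motifs and the Col6a2 window 3 GC boxes. Col6a1 stood at 7.80, 7.30, 7.14 and 7.65 in impaired mice, against 7.40, 7.48, 7.41 and 7.36 in intact mice. The intact mice lay close together and the impaired mice on both sides of them, with an SD of 0.30 in impaired mice and 0.051 in intact mice (n = 4 each); this difference in spread was not tested. The means differed by 0.059 (standard error 0.14, interval -0.25 to 0.37). Col6a2 had values of 6.54, 6.24, 6.23 and 6.32 in impaired mice and 6.18, 6.37, 6.22 and 6.17 in intact mice, with a difference of 0.097 (standard error 0.098), which was 0.027 without impaired mouse 1. Impaired mouse 1 was highest for both genes. Over the 8 mice they gave a Pearson r of 0.80 (exact permutation p = 0.0178, adjusted p = 0.302 over 17 fixed pairs) and a rho of 0.62 (exact p = 0.115). Without impaired mouse 1 and intact mouse 2, the mice farthest from the median of Col6a2, r was 0.52 (exact p = 0.253). Leaving out 1 mouse at a time gave r between 0.52 and 0.875, so that the size of r depended on single mice.

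Col6a3 had values of 5.96, 6.18, 6.04 and 6.12 in impaired mice and 6.09, 6.09, 6.48 and 6.07 in intact mice. Intact mouse 3 stood apart above the other 7, and the difference was -0.11 (standard error 0.11). Without that mouse it was -0.0066. Col6a6 had the lowest unadjusted p of the family. It stood at 5.27, 5.11, 4.68 and 4.94 in impaired mice, against 5.16, 5.25, 5.58 and 5.60 in intact mice. Impaired mouse 3 was lowest and intact mice 3 and 4 highest, while impaired mouse 1 lay above intact mice 1 and 2, so that the groups overlapped. The difference was -0.40 (standard error 0.15), with an unadjusted p of 0.0230 and an adjusted p of 0.963 in limma, and an exact permutation p of 0.0857. The gene lay below the intron level. Its neighbours Col6a4 and Col6a5 differed by 0.20 and -0.18, with intervals that included 0. Of the 6 type VI genes, 3 had a higher and 3 a lower mean in impaired mice.

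Fibril-associated collagens, with interrupted helices, bind to the surface of fibrils. Of the 8 measured, 5 had a higher and 3 a lower mean in impaired mice, with a median difference of 0.063, and 0 had an unadjusted p under 0.05. Col9a1, Col9a2 and Col9a3 encode type IX collagen, which coats type II fibrils in cartilage, and differed by 0.25, 0.13 and -0.099. Col16a1, of broad distribution in connective tissue, was among the 6 collagens above the intron level with the largest SD over the mice. It stood at 7.76, 8.07, 7.64 and 8.19 in impaired mice and 7.80, 7.98, 8.03 and 8.11 in intact mice. Impaired mice held the 2 lowest values and the highest, and the difference was -0.067 (standard error 0.13). Col19a1, which interneurons make and which takes part in synapse formation in the mouse hippocampus, differed by 0.11 (interval -0.11 to 0.32). Col22a1, a collagen of tissue junctions, varied least of all collagens, with an SD of 0.055 over the 8 mice, and differed by 0.055 (interval -0.12 to 0.23). Col14a1 and Col20a1 differed by 0.071 and -0.060.

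The membrane-spanning collagens carry their helix outside the cell and can be shed. Col25a1, a collagen of neurons whose shed part is known from amyloid plaques, stood at 7.98, 8.06, 8.0 and 8.08 in impaired mice, against 8.05, 8.01, 8.27 and 8.11 in intact mice. Intact mouse 3 was highest and the other 7 mice lay close together. The difference was -0.081 (standard error 0.088, adjusted p = 0.964 in limma), and its interval ran from -0.28 to 0.11. Without intact mouse 3 it was -0.026. Col13a1, a collagen of the neuromuscular junction, had values of 7.74, 7.29, 7.74 and 7.61 in impaired mice and 7.58, 7.82, 7.75 and 7.45 in intact mice. Impaired mouse 2 was lowest and intact mouse 2 highest, and the difference was -0.057 (standard error 0.13). Col17a1, of the hemidesmosomes of skin, and Col23a1 differed by 0.11 and 0.15, both with intervals that included 0. Of the 4, 2 had a higher and 2 a lower mean in impaired mice.

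The multiplexins Col15a1 and Col18a1 are collagens of the vascular basement membrane zone that release antiangiogenic fragments, restin and endostatin. Col15a1 stood at 6.46, 6.35, 6.36 and 6.43 in impaired mice, against 6.61, 6.79, 6.44 and 6.66 in intact mice. Intact mice 1, 2 and 4 lay above all impaired mice, while intact mouse 3 lay below impaired mouse 1. The difference was -0.22 (standard error 0.094, interval -0.43 to -0.014), with an unadjusted p of 0.0387 and an adjusted p of 0.963 in limma, and an exact permutation p of 0.0571. Col18a1 had values of 5.43, 6.26, 5.39 and 5.74 in impaired mice and 5.86, 5.52, 5.76 and 5.32 in intact mice. It was highest in impaired mouse 2, and its difference of 0.087 had a standard error of 0.20. Its interval, -0.35 to 0.52, was wider than that of any other collagen but Col2a1.

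Of the 2 remaining chains, Col28a1 is a collagen known from the basement membrane of Schwann cells in peripheral nerve. It stood at 8.17, 8.02, 8.07 and 8.0 in impaired mice, against 7.81, 7.99, 7.99 and 7.90 in intact mice. Every impaired mouse was above every intact mouse, by little: impaired mouse 4 lay just above intact mice 2 and 3. The difference was 0.14 with a standard error of 0.085, an unadjusted p of 0.118 and an adjusted p of 0.963 in limma. The exact permutation test gave p = 0.0286, the smallest that 4 against 4 mice allow. Groups without overlap occur in 2.76% of all genes, against 1 of the 42 collagens. Col26a1, first found in testis and ovary, differed by 0.13 (interval -0.070 to 0.33).

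**Figure D3:**
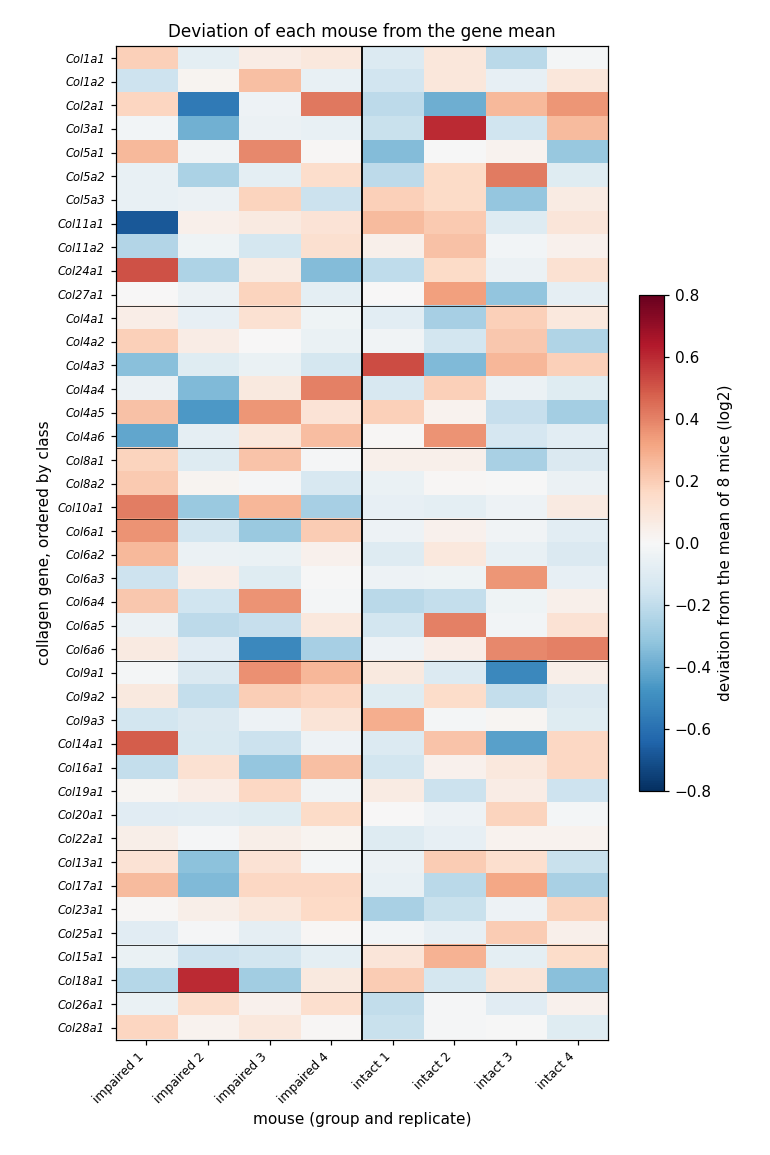
Deviation of each mouse from the mean of 8 mice (log2) for the 42 collagen genes, ordered by class, with impaired mice left of the black line and intact mice right of it. Strong colours fall on single mice and single genes, such as Col11a1 in impaired mouse 1, Col3a1 in intact mouse 2 and Col18a1 in impaired mouse 2, and no class is of one colour across a group.

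Mice of the same group differed from each other across the family. The median deviation of the 42 collagens was 0.012, -0.083, 0.053 and 0.018 in impaired mice 1 to 4 and -0.056, 0.029, -0.026 and 0.0046 in intact mice 1 to 4. Impaired mice 2 and 3 thus bounded the range. Impaired mouse 2 had the lowest of the 8 values for 10 collagens, or 23.8%, against 9.46% of all genes, and the highest for 2. Impaired mouse 1 had the highest value for 9 collagens (21.4%, against 12% of all genes) and the lowest for 7 (16.7%, against 15% of all genes). Only 11 of the 42 genes lay above their own mean in impaired mouse 2, while 23, 24 and 24 did in the other impaired mice and 14, 23, 17 and 21 in intact mice 1 to 4. These shares were not tested.

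Pairs of a collagen and the markers of a cell type known to make it were also set side by side over the 8 mice, in lists that held no collagen. Of 18 meningeal fibroblast markers, 16 lay above the 75th percentile of the introns, and 15 had a higher and 3 a lower mean in impaired mice, with a median difference of 0.15. Other marker lists also lay mostly to one side: 0 of 12 choroid plexus markers (median -0.57) and 0 of 10 oligodendrocyte markers (median -0.14) had a higher mean in impaired mice, against 12 of 12 thalamus markers (median 0.32). The fibroblast markers' mean deviation was -0.043 to 0.32 in impaired mice and -0.24 to 0.014 in intact mice, highest in impaired mouse 4 and lowest in intact mouse 1. Fmod, a proteoglycan that binds collagen fibrils, was 8.56 ± 0.20 in impaired mice and 7.87 ± 0.44 in intact mice (SD, n = 4 each). Its difference was 0.69 (standard error 0.20), with an unadjusted p of 0.00616 and an adjusted p of 0.958 in limma. Its groups did not overlap, as in 2.76% of all genes. Slc22a6 differed by 0.50 (unadjusted p = 0.0114, adjusted p = 0.963 in limma). Lum and Slc22a2 of this list were not above the intron level.

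Against that fibroblast score, Col1a1 gave a Pearson r of 0.64 (exact permutation p = 0.0812, adjusted p = 0.691) and a rho of 0.81 (exact p = 0.0218, adjusted p = 0.370). Without impaired mouse 4 and intact mouse 1, the mice farthest from the median score, r was 0.92 (exact p = 0.0194). Its partner Col1a2 gave r = 0.041 (exact p = 0.928), Col3a1 0.17 (exact p = 0.667) and Col6a3 -0.26 (exact p = 0.424). Without the same 2 mice, Col6a3 gave r = -0.90 (exact p = 0.0125), opposite in sign to Col1a1. Col1a2 then gave -0.20 (exact p = 0.764) and Col3a1 0.32 (exact p = 0.532). The p-values over 6 mice were not adjusted. With the score as a covariate in limma, the difference of Col1a1 was 0.055. None of the 17 fixed pairs passed an adjusted p of 0.05. Correlations within a group, over 4 mice each, were not computed. No scan date or array batch was known, so that none could be taken into account.

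**Figure D4:**
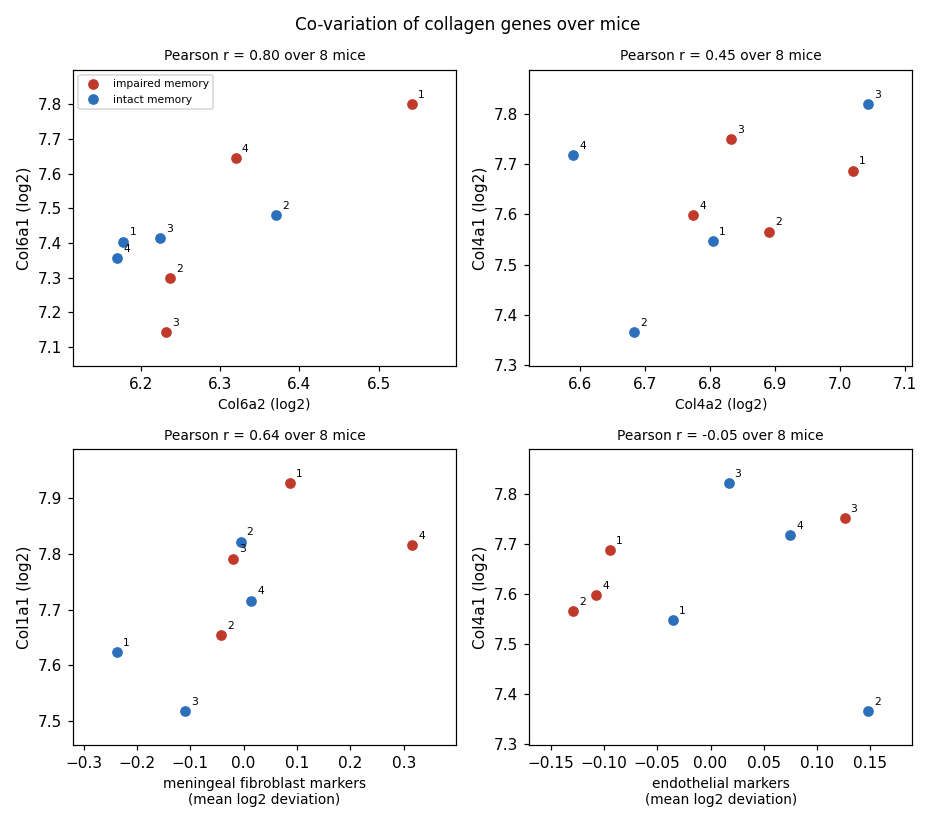
Values of 4 of the fixed pairs over the 8 mice, numbered by replicate, with impaired mice in red and intact mice in blue: Col6a1 against Col6a2, Col4a1 against Col4a2, Col1a1 against the mean deviation of the meningeal fibroblast markers and Col4a1 against that of the endothelial markers, all on the log2 scale. Pearson r was 0.80, 0.45, 0.64 and -0.05, and none of these passed the adjustment over 17 pairs.

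Markers of the vessel wall were all or mostly above the intron level, 12 of 12 for endothelial cells and 9 of 12 for mural cells, with Tagln, Myh11 and Higd1b at or below it. Of the endothelial markers 2 had a higher and 10 a lower mean in impaired mice (median difference -0.081), and of the mural markers 5 had a higher and 7 a lower mean (median -0.043). Col4a1 gave r = -0.046 with the endothelial score (exact permutation p = 0.918) and -0.27 with the mural score (exact p = 0.528), and Col4a2 gave -0.47 with the endothelial score (exact p = 0.245). With 1 mouse left out at a time, r of Col4a1 with the endothelial score ran from -0.245 to 0.67. The highest was without intact mouse 2, which had the highest endothelial score and the lowest Col4a1. Against the choroid plexus score, Col8a1, Col8a2, Col9a3 and Col18a1 gave r of 0.11, -0.12, 0.40 and -0.073 (exact p from 0.329 to 0.881). The part of the neighbouring tissue in the values of single collagens was not tested beyond the fits with these scores as covariates.

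Genes that make, cut and bind collagen were read from lists set by known function. Of 14 measured enzymes that modify prolines and lysines of the chains, 8 had a higher and 6 a lower mean in impaired mice. Ppib, cyclophilin B, which helps the chains to fold and belongs to the prolyl 3-hydroxylation complex, had the lowest p of all these lists. It stood at 9.41, 9.57, 9.48 and 9.52 in impaired mice, against 8.97, 9.44, 8.74 and 8.87 in intact mice. Only intact mouse 2 reached the impaired values, and the difference was 0.49 (standard error 0.14), with an unadjusted p of 0.00583 and an adjusted p of 0.947 in limma. P3h1, the hydroxylase of the same complex, differed by -0.24 (standard error 0.10). P4ha3, a subunit of prolyl 4-hydroxylase, differed by 0.22.

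Collagen chaperones and export factors had a higher mean for 5 and a lower mean for 6 of 11 genes, led by the disulfide isomerase Pdia3 (-0.20), Tmem38b, an ion channel of the endoplasmic reticulum (-0.17), and the prolyl isomerase Fkbp14 (-0.20). Procollagen processing and crosslinking had 5 higher and 6 lower of 11, with -0.18 for the processing enhancer Pcolce, -0.099 for the N-propeptidase Adamts3 and -0.080 for the lysyl oxidase Loxl4. Lox, the main lysyl oxidase, whose mean was not above the intron level, had the largest difference of that list, 0.32 (unadjusted p = 0.0505, adjusted p = 0.963 in limma). Collagen degradation had 6 higher and 9 lower of 15, led by Pepd, the peptidase that frees proline from collagen fragments (-0.22, unadjusted p = 0.0491 and adjusted p = 0.963 in limma). Of the genes above the intron level, the metalloproteinase inhibitors Timp3 and Timp4 followed with 0.14 each. The inhibitor Timp1, whose mean was not above that level, differed by -0.40, the largest difference of the list. Its unadjusted p was 0.099 and its adjusted p 0.963 in limma. Collagen receptors had 4 higher and 7 lower of 11. Antxr1, a receptor of collagens, differed by -0.16, the inhibitory immune receptor Lair1 by -0.13 and the discoidin domain receptor Ddr2 by 0.097. Antxr2, whose mean was not above the intron level, had the largest difference of the receptors, 0.34 (unadjusted p = 0.1725, adjusted p = 0.964 in limma).

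Partners of type IV collagen in the basement membrane had 9 higher and 5 lower of 14. The laminin chain Lama1, strong in the meninges, differed by 0.31 (standard error 0.14, unadjusted p = 0.0472 and adjusted p = 0.963 in limma), fibronectin, Fn1, by 0.20 and the laminin chain Lamc3 by -0.15. Growth factors and regulators of matrix had 6 higher and 5 lower of 11, with 0.28 for the matricellular protein Ccn1, -0.275 for Tgfb2 and 0.13 for Ccn2. Postn, whose mean was not above the intron level, had the largest difference of the regulators, 0.35 (unadjusted p = 0.179, adjusted p = 0.964 in limma). Of these 6 lists and the growth factors, 0 genes passed the adjustment. Unadjusted p under 0.05 was reached by 2 modifying enzymes, 1 gene each of degradation, of receptors (Itga11, lower in impaired mice), of basement membrane partners and of the regulators, and 0 of chaperones and of processing, where 4.94% of all genes reached it.

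**Figure D5:**
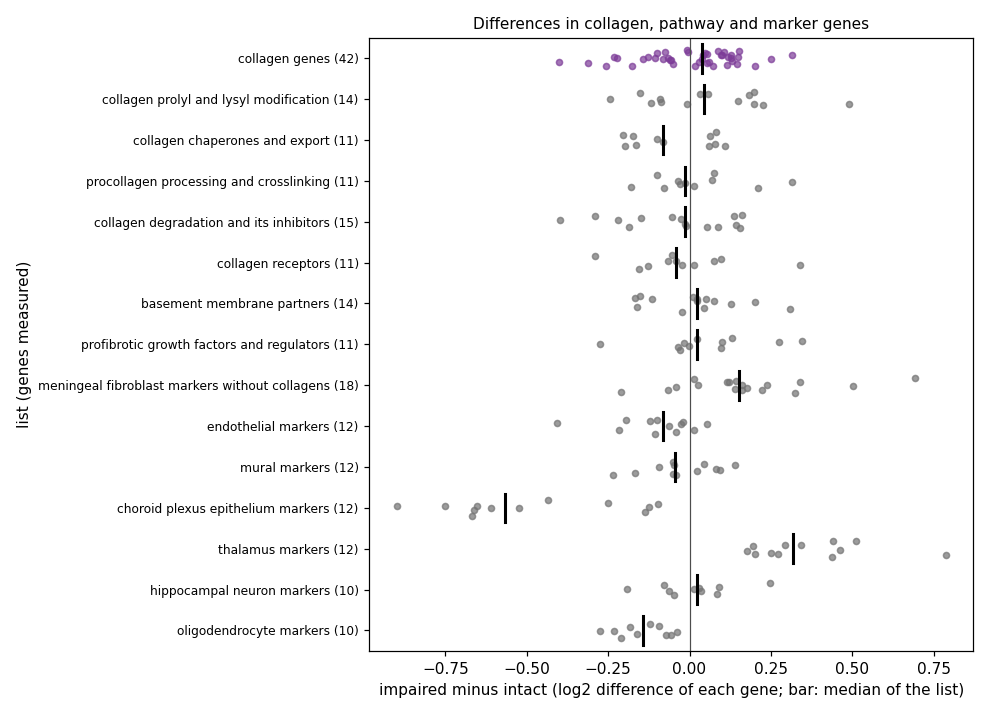
Log2 differences, impaired minus intact memory, of the 42 collagen genes and of the genes of 14 lists, 1 point per gene, with the median of each list as a bar. The collagens centre on a median of 0.039, while the medians of the choroid plexus and thalamus markers, which varied most between mice, are -0.57 and 0.32.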

How the data were processed

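Hippocampal RNA of 8 mice was read on 1-colour Affymetrix mouse arrays, 1 per mouse. Sense-strand cDNA was made from 1 ng of RNA with the WT Pico kit, per the labels' protocols. Values were deposited as log2. They come from RMA, per the submitters' processing notes, a method that subtracts background, equalizes array quantiles and summarizes probes. RMA draws differences of dim genes towards 0. The RMA version is not given in the sources used here, nor is a genome build. No scanner files were used here.

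There were 29129 probe sets, 22206 of them targets. The platform's probe table gave 1 symbol to 19572, several to 0 and none to 2634. For 55 of 19505 genes with over 1 probe set the brightest was used, and no gene was left out as dim. Differences were fitted with limma 3.58.1 in R 4.3.3 (lmFit, eBayes), adjusted by Benjamini-Hochberg over all 19505 genes, with a threshold of 0.05. Correlations used exact permutation over 40320 pairings. The fit was tested on simulated data with known changes in 200 genes. At an adjusted p under 0.05 it recovered 34.0% of log2 changes of 0.5, 81.5% of 1 and 98.5% of 2. Most changes of 0.5 were thus missed. Precision is limited by having 4 arrays per group, and the standard error of a difference had a median of 0.119 over genes. No 2 arrays held identical values. Alternatives were the filter, 2 normalizations, the limma prior, the replicate number, 2 marker scores, the probe set rule and each mouse left out.

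The members, lists and tests were chosen with earlier results of these data known. Genes given mouse by mouse are those with an unadjusted p under 0.05 or groups without overlap, the chains of types I, III, IV (1 and 2), VI (1 to 3), XVIII and XXV, and the 6 with the largest SD over mice among those above the 75th percentile of the introns. Of pathway lists, up to 3 genes above that level with the smallest p are named. Antxr2, Itga11, Lox, Postn and Timp1 were named after their values were seen. Promoter sequences are RefSeq's of GRCm38.p6.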

Additional observations from a re-analysis of the deposited data

Results flagged for a closer look

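In 38 groups of 4 mice, 2 for each of 19 collagen genes, 3 had a mouse far from the other 3, with a gap to the nearest above Dixon's 95% critical value as a share of the group's range. Chance gives this in about 1 of 20 groups of genes not picked for their values, a rate that does not apply here, since some of the 19 were named for a large SD or a small p. Col11a1 stood at 5.65 in impaired mouse 1, against 6.37 to 6.44 in the other impaired mice. Col3a1 stood at 4.69 in impaired mouse 2, against 5.02 to 5.05 in the others. Col6a3 stood at 6.48 in intact mouse 3, against 6.07 to 6.09 in the other intact mice. Each was a different mouse, and the causes were not tested.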

How the results depend on the processing

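Under 17 other settings, 0 collagens passed an adjusted p of 0.05, and the lowest adjusted p of any collagen was 0.699. The count with an unadjusted p under 0.05, 3 as reported, was 1 without the dimmest 25% of genes (which left 32 collagens), 1 with an intensity trend and robust prior, 1 with the replicate number as a block and 1 with the choroid plexus score as a covariate. It was 4 with the meningeal fibroblast score as a covariate (Col3a1, Col6a5, Col6a6 and Col15a1). It ran from 0 to 3 without single mice. Over all genes 1 (Scg5) passed with the trend and robust prior, where 0 did as reported. The median difference of the collagens ran from 0.0051 to 0.067 without single mice and moved under no setting by more than 0.049, the spread between mice within a group. With the replicate block it was 0.039. The replicate numbers do not pair the mice: deviations of mice with the same number correlated at -0.0011, 0.022, -0.018 and -0.093. No mouse correlated best with the mouse of its own number in the other group.

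Of 19 collagens, 11 kept the sign of their difference in all settings and 8 did not. Col1a2 was -0.058, -0.030 and -0.0011 without impaired mouse 3, intact mouse 1 and intact mouse 3, with a range over single mice from -0.058 to 0.077. Col4a4 was -0.087 without impaired mouse 4 (to 0.16 without others), Col4a1 -0.045 without intact mouse 2 (to 0.11) and Col6a1 -0.051 without impaired mouse 1 (to 0.17). Col13a1 was 0.044 and 0.00050 without impaired mouse 2 and intact mouse 2 (down to -0.12), Col16a1 0.025 without impaired mouse 3 (down to -0.16), and Col18a1 -0.098 and -0.010 without impaired mouse 2 and intact mouse 4 (to 0.19). With the plexus score, Col1a2 was -0.023 and Col4a1 -0.029. With the meningeal fibroblast score, Col4a4 was -0.18 and Col6a1 -0.080. Without both mice of replicate 3, which had the lowest plexus scores, a setting added after seeing the data, Col1a2 was -0.077, Col16a1 0.042 and Col6a3 0.0070. The causes were not tested. Signal over background limits the 21 collagens at or below the intron level, and the number of arrays limits all.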
